A study of Homo sapiens with 9 samples.

Results

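The lysosome is the acidic compartment in which cells break down proteins, lipids and sugars, and autophagy is the route that delivers the cell's own material to it. Here the mRNAs of 50 genes of this system were followed in HCT116 cells, a human colorectal carcinoma line, with and without a catalytic mutation of the ubiquitin ligase HUWE1. The 50 genes were picked by name for their function, with earlier results of these data known, and all 50 of the 50 names had a row among the 11350 genes of the count table. They encode 12 lysosomal enzymes and lumenal proteins, 6 lysosomal membrane proteins, 14 subunits of the proton pump, 15 autophagy proteins and 3 regulators.

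RNA-seq was performed with 3 libraries each of 3 lines. HUWE1-P cells are the parental, unedited cells. HUWE1-WT and HUWE1-CS cells were both edited by CRISPR with a repair template that rebuilds the end of the HUWE1 reading frame and adds a gene for blasticidin resistance behind a P2A sequence. The template restores the catalytic cysteine of the HECT domain in HUWE1-WT cells and places a serine there in HUWE1-CS cells, so that the resistance gene, the transfection and the puromycin and blasticidin selection are shared by both edited lines and are lacking in HUWE1-P cells. The edited lines were grown from single cells. Whether the 3 libraries of a line come from 1 clone or from several is not given in the sources used here, so clone and genotype cannot be told apart, and the p-values measure the spread between these libraries only.

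The libraries held 1610984 to 2060349 counts, and 3 counts corresponded to 1.45 to 1.86 CPM (the usual scaling of a gene's counts by the size of its library, here TMM-normalized). The edited gene itself was measured at 561, 545 and 522 CPM in the HUWE1-P libraries, at 498, 453 and 455 CPM in HUWE1-WT and at 345, 323 and 339 CPM in HUWE1-CS. All 3 HUWE1-CS libraries lay below the 6 others, with a log2 fold change of -0.69 ± 0.06 (SE) against HUWE1-P and -0.48 ± 0.07 against HUWE1-WT. Of the 7 colorectal epithelial markers, 6 were measured (the exception was VIL1), and their summed level was 4115 to 4533 CPM in the control libraries and 3670 to 4044 CPM in HUWE1-CS. Of the leukocyte and endothelial markers none was among the tested genes, and of 4 fibroblast markers only COL1A1 was, at 18.0 to 25.6 CPM in the controls and 8.71 to 14.8 CPM in HUWE1-CS. The part of these shifts in the results was not tested. All libraries come from cultures of HCT116 cells, not from a tissue with several cell types. In bulk RNA, a shift in the share of cells in a given state and a shift in RNA per cell cannot be told apart.

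Lysosomal enzymes are made in the endoplasmic reticulum, sorted to the lysosome by receptors and activated by its low pH, which is kept by the V-ATPase, a proton pump with a membrane sector (V0) and a cytosolic sector (V1). Autophagy starts at a kinase complex of ULK1, ATG13 and RB1CC1 and a lipid kinase complex that holds BECN1, and goes on through the ubiquitin-like proteins ATG12 and the ATG8 family, which are attached to their partners by an enzyme cascade. When the kinase MTOR is inactive at the lysosome surface, the transcription factors TFEB and TFE3 enter the nucleus and bind E-box motifs in the promoters of lysosomal genes. The core of this motif is CACGTG, which reads the same on both strands.

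Because 2 members are these factors, the promoters of the members were searched for the motif. Binding of these factors, or of others, to the matches was not measured here. RefSeq promoter windows (GRCh38.p14, 250 bases before to 50 bases after the annotated start) were matched for 40 of the 50 members. Each gene was represented by a single window, which need not be its main promoter, and any other start was not searched. CACGTG occurred in the windows of 11 members (27.5%), beside 10.6% of the 9041 windows of tested genes and 7.43% of all 27305 windows. The 7-letter form TCACGTG, counted on either strand and always overlapping a CACGTG match, occurred in 10 members (25%), beside 6.19% of the windows of tested genes. The 250 bases before the start of GAA (chr17:80101331-80101580, plus strand), encoding the enzyme that breaks down lysosomal glycogen, and of MCOLN1 (chr19:7522374-7522623, plus strand), encoding a lysosomal calcium channel, are shown because they are the called members whose windows hold 2 matches, in capitals. The RNA of GAA was higher in HUWE1-CS cells in both comparisons, and that of MCOLN1 was called lower against HUWE1-P but not against HUWE1-WT. Among uncalled members, ATG3, ATP6V0B and CTSA also held 2 matches.
GAA: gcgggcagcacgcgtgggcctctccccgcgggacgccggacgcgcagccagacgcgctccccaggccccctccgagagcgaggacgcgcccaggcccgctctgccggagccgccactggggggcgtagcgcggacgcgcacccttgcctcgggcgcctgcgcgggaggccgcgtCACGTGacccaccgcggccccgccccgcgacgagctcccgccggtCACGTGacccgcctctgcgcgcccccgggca
MCOLN1: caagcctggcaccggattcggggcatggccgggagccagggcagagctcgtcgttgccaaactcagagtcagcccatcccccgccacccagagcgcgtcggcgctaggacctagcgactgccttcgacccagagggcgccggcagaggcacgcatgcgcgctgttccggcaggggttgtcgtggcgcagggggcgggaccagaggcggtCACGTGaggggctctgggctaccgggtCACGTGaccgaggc

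The matches of GAA begin 76 and 31 bases before the start, and those of MCOLN1 41 and 14 bases before it. A further pair of members called higher in HUWE1-CS cells held 1 match each, ATP6V1G1 58 bases before its start (chr9:114587702-114587725, plus strand) and CD63 180 bases before its start (chr12:55729175-55729198, minus strand). ATP6V1G1 was called in both comparisons, and CD63 against HUWE1-P but not against HUWE1-WT. For comparison, sites are given of 3 members that were not called, LAMP1 (chr13:113297202-113297225, plus strand, 1 of its 6 matches), CTSD (chr11:1763960-1763983, minus strand) and CTSA (chr20:45891301-45891324, plus strand, 1 of its 2 matches). The 24 bases around each match are written along the gene's strand with the motif in capitals.
ATP6V1G1: ctgtgcggtCACGTGacaacgggg
CD63: ggtaggggcCACGTGgccctggcc
LAMP1: ccgcgggatCACGTGacgcccggg
CTSD: ggccgcgccCACGTGaccggtccg
CTSA: gccggagttCACGTGactcgtaca

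Differences between the lines were tested with edgeR's quasi-likelihood test over all 11350 genes, and a gene counted as called where its p-value, adjusted by the method of Benjamini and Hochberg (FDR), was at most 0.01. In HUWE1-CS against HUWE1-P cells, 9 of the 50 members were called (18%), beside 17% of all genes tested. Of these, 6 were higher (12% of members, 8.46% of all genes): PSAP, GAA, CTSL, ATP6V1G1, ATP6AP2 and CD63. The other 3 were lower (6% of members, 8.58% of all genes): ATG12, RB1CC1 and MCOLN1. In HUWE1-CS against HUWE1-WT cells, 8 members were called (16%), beside 15.5% of all genes. Higher were 5 (10%, beside 7.42% of all genes), namely PSAP, ATP6V1G1, BECN1, GAA and ATP6V1E1. Lower were 3 (6%, beside 8.08%), namely ATG12, RB1CC1 and NPC1. The shares of called members thus lay near those of all genes, and the counts do not set the 50 genes apart from the rest.

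In at least 1 comparison, 12 members were called, and 38 in none. Both comparisons share the HUWE1-CS libraries, and 5 members (PSAP, GAA, ATP6V1G1, ATG12 and RB1CC1) were called in both, with 0 members called in opposite directions. The matching shares over all genes are not given here, so these counts do not set the members apart either. In HUWE1-WT against HUWE1-P cells, 2 of the 50 members had an unadjusted p under 0.05 in the edgeR test, beside 629 of all 11350 genes. After adjustment edgeR called 0 members, beside 7 called genes or 0.0617% of all genes (0.00881% higher, 0.0529% lower). DESeq2 likewise called 0 members. The log2 fold changes of the members between these control lines ran from -0.38 to 0.28, and the smallest adjusted p was 0.606, for BECN1. This contrast is also the test of whether a member differed more from one control than from the other, so the members called against 1 control only are not shown to differ between the controls.

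The median log2 fold change of the members was 0.05 against HUWE1-P and 0.04 against HUWE1-WT, beside -0.01 and 0.00 over all genes. With a trend of each library with transcript length removed, the median against HUWE1-P was 0.15 and that against HUWE1-WT 0.07, beside 0.02 and 0.02 over all genes. Across genes, log2 fold change and length of the longest transcript had a Spearman's rho of -0.23 over all genes and of -0.08 over the members against HUWE1-P, and of -0.17 and 0.01 against HUWE1-WT. The members' median length was 4101.5 bases beside 3918 bases for all genes. Genes are not independent replicates, and these values carry no test.

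**Figure D1:**
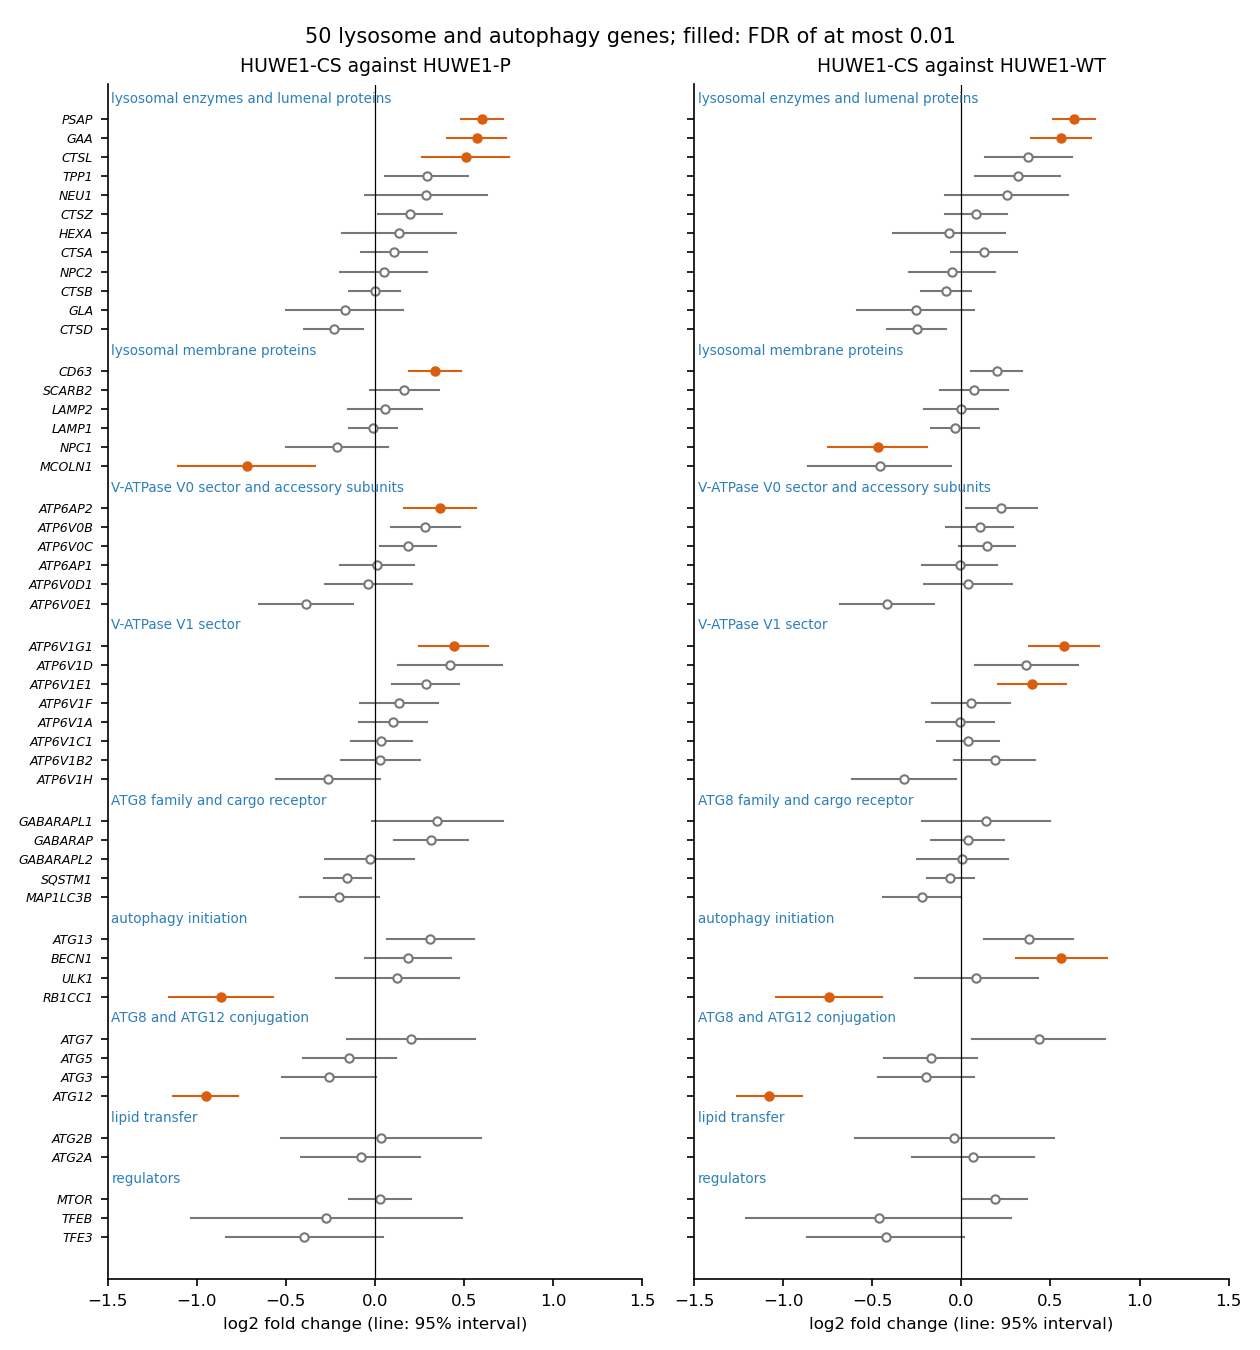
Log2 fold change of each of the 50 members in HUWE1-CS against HUWE1-P cells (left) and against HUWE1-WT cells (right), ordered within role groups. Points are edgeR estimates, lines their 95% intervals, and filled points the 9 and 8 members at an FDR of at most 0.01. ATG12 is farthest left in both panels, and PSAP farthest right.

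Among the 12 lysosomal enzymes and lumenal proteins, 3 rose against HUWE1-P, 0 fell and 9 were not called, with a median log2 fold change of 0.17. These are 25% and 0%, beside 8.46% higher and 8.58% lower over all genes. Against HUWE1-WT, 2 rose (16.7%) and 0 fell, beside 7.42% and 8.08% of all genes. PSAP, the precursor of the saposins that help enzymes reach sphingolipids, lies at chr10:73576055-73611008 (hg19, minus strand). Per length of the longest annotated transcript it was the most abundant member (245 CPM per kilobase over the 9 libraries). It was measured at 586, 585 and 565 CPM in the HUWE1-P libraries, at 552, 569.9 and 573 CPM in HUWE1-WT and at 864, 922 and 843 CPM in HUWE1-CS. The HUWE1-CS libraries lay far above both control lines, which overlapped each other. The log2 fold change was 0.60 ± 0.06 (SE) against HUWE1-P (adjusted p = 1.08e-14, edgeR) and 0.63 ± 0.06 against HUWE1-WT (adjusted p = 9.81e-16).

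GAA, the acid alpha-glucosidase that degrades glycogen, lies at chr17:78075332-78093680 (hg19, plus strand). Its levels were 137, 150.4 and 133 CPM in HUWE1-P, 152, 134 and 137 CPM in HUWE1-WT and 189, 233 and 201 CPM in HUWE1-CS. Every HUWE1-CS library again exceeded every control library. The difference was 0.57 ± 0.08 on the log2 scale against HUWE1-P (adjusted p = 2.84e-08, edgeR) and 0.56 ± 0.08 against HUWE1-WT (adjusted p = 6.54e-08).

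CTSL, encoding the cysteine protease cathepsin L, was less uniform. It was found at 57.1, 60.1 and 51.1 CPM in HUWE1-P, at 55.0, 54.0 and 75 CPM in HUWE1-WT and at 70.0, 83.9 and 84.2 CPM in HUWE1-CS. The third HUWE1-WT library lay within the range of the HUWE1-CS libraries. CTSL rose by 0.51 ± 0.12 on the log2 scale against HUWE1-P (adjusted p = 0.000799, edgeR), while the value against HUWE1-WT was 0.38 ± 0.12 (adjusted p = 0.0156). Without HUWE1-P replicate 3 the adjusted p against HUWE1-P was 0.0156, and with DESeq2 it was 0.0141. Against HUWE1-WT the adjusted p was 0.00198 without HUWE1-WT replicate 3, 0.00825 without HUWE1-CS replicate 1 and 0.00504 with the length trend removed (0.00481 together with a replicate block).

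CTSD, the aspartyl protease cathepsin D, did not pass the test in either comparison. Its 3 HUWE1-CS libraries, at 156, 150.3 and 138 CPM, lay below the control libraries at 160.3 to 185 CPM. The log2 fold change was -0.23 ± 0.08 against HUWE1-P (adjusted p = 0.0291, edgeR) and -0.25 ± 0.08 against HUWE1-WT (adjusted p = 0.0192). Without HUWE1-WT replicate 2 the adjusted p against HUWE1-WT was 0.00852, and with scaling by total counts it was also 0.00852. Exons of a noncoding gene overlap 23.4% of its exon bases on the opposite strand, and those of a protein-coding readthrough gene 22.9% on the same strand. TPP1, a lysosomal peptidase named here after its values were seen, lay at 70.9 to 87.8 CPM in HUWE1-CS and at 55.1 to 68.4 CPM in the controls, with adjusted p-values of 0.0592 and 0.0414 in the edgeR test. The other uncalled enzymes, which include the proteases CTSA, CTSB and CTSZ, the glycosidases HEXA, GLA and NEU1 and the cholesterol carrier NPC2, lay between CTSD and TPP1 in their log2 fold change against HUWE1-P.

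The summed level of the 12 genes was 1668 ± 44.8 CPM (SD, n = 3) in HUWE1-P, 1698 ± 54.7 CPM in HUWE1-WT and 2078 ± 79.1 CPM in HUWE1-CS, a ratio of 1.25 to HUWE1-P. PSAP alone accounted for 298 CPM of this difference. Without PSAP the sums were 1089.7, 1134 and 1202 CPM, and the ratio without PSAP and GAA was 1.05. The higher summed level of the enzymes in HUWE1-CS cells therefore rested mainly on a pair of genes.

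**Figure D2:**
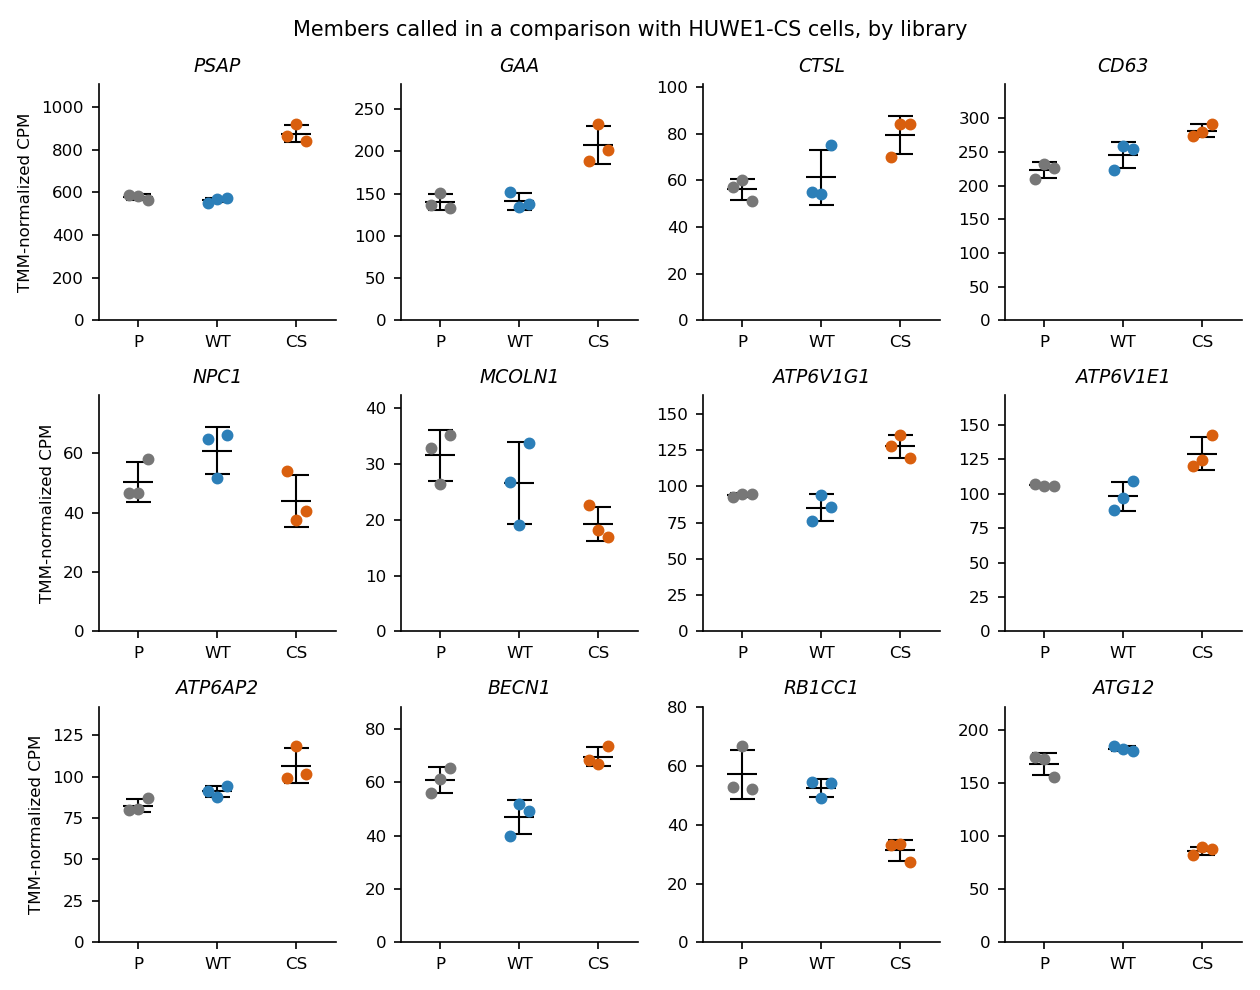
TMM-normalized CPM of the 12 members called in either comparison with HUWE1-CS cells, in each of the 3 libraries of each line (grey, P for HUWE1-P; blue, WT for HUWE1-WT; orange, CS for HUWE1-CS). Horizontal marks and bars show mean and SD, and each axis starts at 0. The HUWE1-CS points are clear of both control lines for PSAP, GAA, ATP6V1G1, ATG12 and RB1CC1, and overlap control points for CTSL, NPC1 and MCOLN1.

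Of the 6 lysosomal membrane proteins, 1 rose and 1 fell against HUWE1-P (16.7% each, beside 8.46% and 8.58% of all genes). Against HUWE1-WT, 0 rose and 1 fell, beside 7.42% and 8.08% of all genes. CD63, a tetraspanin of late endosomes, lysosomes and exosomes, was measured at 209.8, 232 and 226 CPM in HUWE1-P, at 223, 258 and 255 CPM in HUWE1-WT and at 274, 279.6 and 291 CPM in HUWE1-CS. The HUWE1-CS libraries were the highest, and the control lines overlapped each other. The log2 fold change was 0.34 ± 0.07 against HUWE1-P (adjusted p = 0.000145, edgeR) and 0.20 ± 0.07 against HUWE1-WT (adjusted p = 0.0332). With 1233 bases CD63 has a short transcript, and with the length trend removed its log2 fold change against HUWE1-P was 0.19 (adjusted p = 0.0305).

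MCOLN1, whose channel releases calcium from the lysosome, was a low gene with 29 to 73 counts per library. It was measured at 32.9, 26.4 and 35.2 CPM in HUWE1-P, at 26.7, 19.1 and 33.7 CPM in HUWE1-WT and at 22.5, 18.1 and 16.8 CPM in HUWE1-CS. HUWE1-CS lay below all HUWE1-P libraries and overlapped HUWE1-WT. MCOLN1 fell by 0.72 ± 0.19 on the log2 scale against HUWE1-P (adjusted p = 0.00266, edgeR), and its value against HUWE1-WT was -0.46 ± 0.20 (adjusted p = 0.0888). The call against HUWE1-P was lost with DESeq2 (adjusted p = 0.039), and without HUWE1-P replicate 1 (0.0134), HUWE1-P replicate 3 (0.0348), HUWE1-CS replicate 2 (0.0179) or HUWE1-CS replicate 3 (0.0239).

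NPC1, which exports cholesterol from the lysosome, was measured at 46.6, 46.6 and 58.3 CPM in HUWE1-P, at 64.9, 51.8 and 66.3 CPM in HUWE1-WT and at 54.0, 37.4 and 40.6 CPM in HUWE1-CS. The libraries of all 3 lines overlapped. Exons of RMC1, which was among the tested genes, overlap 6.38% of the exon bases of NPC1 on the opposite strand. NPC1 fell by 0.47 ± 0.14 on the log2 scale against HUWE1-WT (adjusted p = 0.00748, edgeR), with a value of -0.21 ± 0.14 against HUWE1-P (adjusted p = 0.288). The call was lost with DESeq2 (adjusted p = 0.0699), with the length trend removed (0.015), and without HUWE1-WT replicate 1 (0.0382), HUWE1-WT replicate 3 (0.0565), HUWE1-CS replicate 2 (0.0875) or HUWE1-CS replicate 3 (0.0465).

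The major structural proteins of the lysosomal membrane were not called. LAMP1 was measured at 297 to 332 CPM in HUWE1-P, 310.3 to 333 CPM in HUWE1-WT and 309 to 328 CPM in HUWE1-CS. Its log2 fold change was -0.01 against HUWE1-P with a 95% interval of -0.15 to 0.12. Its promoter window held 6 E-box cores. LAMP2, the partner of LAMP1 that also serves chaperone-mediated autophagy, had a log2 fold change of 0.05 against HUWE1-P with an interval of -0.15 to 0.26. The summed level of the 6 membrane genes was 817 ± 18.2 CPM in HUWE1-P, 861 ± 35.8 CPM in HUWE1-WT and 870 ± 20.4 CPM in HUWE1-CS, so the edited lines overlapped.

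Of the 14 subunits and accessory proteins of the V-ATPase, 2 rose (14.3%) and 0 fell in each comparison with HUWE1-CS cells. Over all genes, 8.46% were higher and 8.58% lower against HUWE1-P, and 7.42% and 8.08% against HUWE1-WT. ATP6V1G1, a subunit of the peripheral stalk of the V1 sector, lies at chr9:117349986-117361195 (hg19, plus strand). It was measured at 92.5, 94.9 and 94.4 CPM in HUWE1-P, at 75.9, 94.3 and 86.1 CPM in HUWE1-WT and at 128, 136 and 119.6 CPM in HUWE1-CS. All 3 HUWE1-CS libraries lay above the 6 controls. The log2 fold change was 0.44 ± 0.10 against HUWE1-P (adjusted p = 0.000202, edgeR) and 0.58 ± 0.10 against HUWE1-WT (adjusted p = 2.33e-06).

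ATP6V1E1 forms the peripheral stalk together with the G subunit. Its levels were 107, 106 and 106 CPM in HUWE1-P, 88.1, 97.1 and 109 CPM in HUWE1-WT and 120.5, 124 and 143 CPM in HUWE1-CS. The HUWE1-CS libraries were the highest of the 9. The log2 fold change was 0.40 ± 0.10 against HUWE1-WT (adjusted p = 0.000988, edgeR) and 0.28 ± 0.10 against HUWE1-P (adjusted p = 0.0183). The call against HUWE1-WT was lost with DESeq2 (adjusted p = 0.0121), with the length trend removed (0.0182), without HUWE1-WT replicate 1 (0.0177) or without HUWE1-CS replicate 3 (0.0192).

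ATP6AP2, an accessory protein of the V0 sector also known as the prorenin receptor, was measured at 80.1, 80.3 and 87.2 CPM in HUWE1-P, at 91.5, 87.8 and 94.2 CPM in HUWE1-WT and at 99.1, 119 and 102 CPM in HUWE1-CS. The 3 lines did not overlap, and HUWE1-WT lay in the middle. ATP6AP2 rose by 0.36 ± 0.10 on the log2 scale against HUWE1-P (adjusted p = 0.00439, edgeR), with a value of 0.23 ± 0.10 against HUWE1-WT (adjusted p = 0.0963). The call was lost with DESeq2 (adjusted p = 0.0323), and without HUWE1-P replicate 1 (0.0224), HUWE1-P replicate 2 (0.0212) or HUWE1-CS replicate 2 (0.0569).

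Another pair of pump subunits, named after their values were seen, lay apart from the controls without passing the test against HUWE1-P or HUWE1-WT. ATP6V1D, of the central stalk, was at 44.7 to 50.5 CPM in HUWE1-CS and at 34.7 to 39.0 CPM in the controls (adjusted p = 0.0229 and 0.0565, edgeR). ATP6V0E1, a small membrane subunit, lay on the other side, at 44.5 to 45.9 CPM in HUWE1-CS and 53.3 to 68.2 CPM in the controls (adjusted p = 0.022 and 0.0134, edgeR). Against HUWE1-P, the estimates of 11 of the 14 genes lay above 0 and those of 3 below, and against HUWE1-WT 10 and 4. Over all 11350 genes, 5572 and 5670 estimates lay above 0. The other V0 members, ATP6V0B, ATP6V0C and ATP6V0D1 with the accessory protein ATP6AP1, and the other V1 members, ATP6V1A, ATP6V1B2, ATP6V1C1, ATP6V1F and ATP6V1H, were not called. The catalytic subunit ATP6V1A and the nucleotide-binding subunit ATP6V1B2 had log2 fold changes of 0.10 and 0.03 against HUWE1-P, with 95% intervals of -0.09 to 0.29 and -0.19 to 0.25. The 14 genes summed to 1282 ± 35.5 CPM in HUWE1-P, 1298 ± 45.6 CPM in HUWE1-WT and 1418 ± 15.8 CPM in HUWE1-CS, with ratios of 1.11 and 1.09 to the controls.

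**Figure D3:**
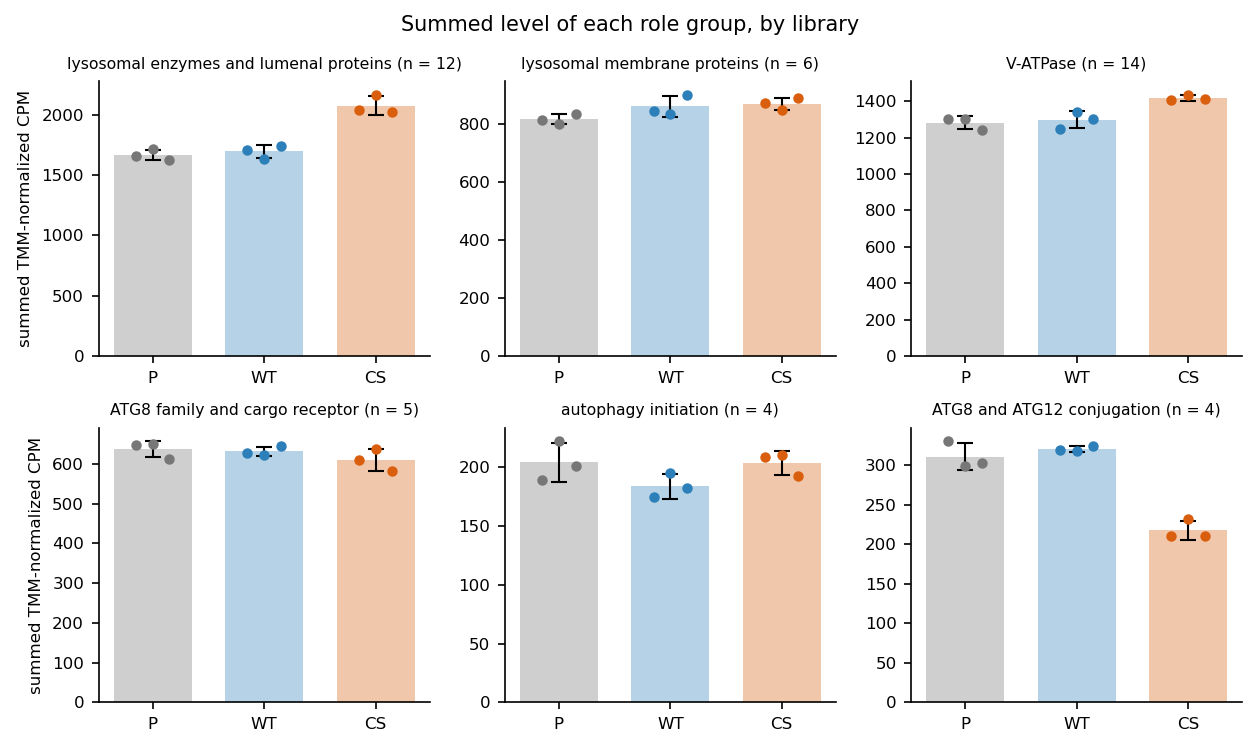
Summed TMM-normalized CPM of 6 role groups of members by library, where P stands for HUWE1-P, WT for HUWE1-WT and CS for HUWE1-CS. Bars are means of 3 libraries, error bars the SD and points single libraries, with n the number of genes summed. The enzymes reach 2025 to 2169 CPM in HUWE1-CS cells and at most 1745 CPM in the controls, and the conjugation genes are lower in HUWE1-CS cells.

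The autophagy genes held the largest decreases of the 50. ATG12, a ubiquitin-like protein that is joined to ATG5 to form the ligase for ATG8 proteins, lies at chr5:115163897-115177534 (hg19, minus strand). It was measured at 174, 173 and 156 CPM in HUWE1-P, at 185, 182 and 181 CPM in HUWE1-WT and at 82.5, 89.6 and 87.7 CPM in HUWE1-CS. The highest HUWE1-CS library was well below the lowest control. ATG12 fell by 0.95 ± 0.09 on the log2 scale against HUWE1-P (adjusted p = 3.69e-15, edgeR) and by 1.08 ± 0.09 against HUWE1-WT (adjusted p = 4.43e-18), to 0.518 and 0.474 times the control levels.

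The neighbourhood of ATG12 also held lower genes. Its 10 nearest tested neighbours had a median log2 fold change of -0.39 against HUWE1-P and -0.26 against HUWE1-WT, with 3 of them called in each comparison, all 3 lower against HUWE1-P. Over all genes, 17% were called against HUWE1-P (8.58% lower) and 15.5% against HUWE1-WT. Over the 24 nearest neighbours of ATG12 the medians were -0.17 and -0.17, and over the 489 tested genes of chromosome 5 they were -0.01 and 0.00. For the 11 other called members, the median of the neighbours against HUWE1-P lay between -0.13 and 0.17. Among the 10 neighbours of PSAP, 3 were also called against HUWE1-P, 2 higher and 1 lower. AP3S1, a gene of the AP-3 sorting complex named after its values were seen, overlaps 2.09% of the exon bases of ATG12 on the opposite strand, and its log2 fold change was -0.45 against HUWE1-P (adjusted p = 1.66e-07, edgeR) and -0.63 against HUWE1-WT (adjusted p = 2.36e-12). Whether a local difference of the HUWE1-CS line, such as in copy number, has a part in the lower ATG12 level was not tested.

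The partners of ATG12 in conjugation did not pass the test. They are ATG5, to which ATG12 is joined, ATG7, which activates both kinds of ubiquitin-like protein, and ATG3, which carries ATG8 proteins. Against HUWE1-P their log2 fold changes were -0.14 ± 0.13, 0.20 ± 0.18 and -0.26 ± 0.13. The 4 genes summed to 311 ± 17.1 CPM in HUWE1-P, 321 ± 3.78 CPM in HUWE1-WT and 218 ± 12.1 CPM in HUWE1-CS. Without ATG12 the sums were 143 ± 15.4, 138 ± 5.50 and 131 ± 9.90 CPM, and the libraries of the 3 lines overlapped. Most of the lower sum thus lay in ATG12.

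RB1CC1, also called FIP200, is the scaffold of the ULK1 kinase complex and lies on chromosome 8. It was measured at 52.8, 66.8 and 52.0 CPM in HUWE1-P, at 54.5, 49.1 and 54.1 CPM in HUWE1-WT and at 33.2, 33.5 and 27.3 CPM in HUWE1-CS. Its 3 HUWE1-CS libraries lay below all controls. RB1CC1 fell by 0.86 ± 0.15 on the log2 scale against HUWE1-P (adjusted p = 1.46e-06, edgeR) and by 0.74 ± 0.15 against HUWE1-WT (adjusted p = 5.82e-05).

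No other initiation gene was called lower. BECN1, a subunit of the lipid kinase complex, was measured at 55.9, 61.2 and 65.5 CPM in HUWE1-P, at 40.0, 51.8 and 49.4 CPM in HUWE1-WT and at 68.2, 66.9 and 73.7 CPM in HUWE1-CS. HUWE1-WT was lowest and HUWE1-CS highest, with HUWE1-P between them. BECN1 rose by 0.56 ± 0.13 on the log2 scale against HUWE1-WT (adjusted p = 0.000398, edgeR), with a value of 0.19 ± 0.12 against HUWE1-P (adjusted p = 0.27). Without HUWE1-WT replicate 1 the log2 fold change against HUWE1-WT was 0.46 and the adjusted p 0.0113. On the opposite strand, exons of CNTD1, which was not among the tested genes, overlap 12.4% of the exon bases of BECN1. Those of PSME3, which was among them, overlap 4.68%.

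ATG13, the subunit that links ULK1 to RB1CC1, was named after its values were seen. It lay at 63.9 to 76.6 CPM in HUWE1-CS and 46.4 to 62.7 CPM in the controls, without passing the test (adjusted p = 0.0512 and 0.018, edgeR). The kinase ULK1 itself had log2 fold changes of 0.12 ± 0.17 and 0.08 ± 0.17. The 4 initiation genes summed to 204 ± 16.7 CPM in HUWE1-P, 184 ± 10.5 CPM in HUWE1-WT and 204 ± 9.97 CPM in HUWE1-CS.

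None of the 4 ATG8 family genes measured and their receptor SQSTM1 was called. SQSTM1, or p62, which links ubiquitinated cargo to ATG8 proteins, was measured at 412, 385 and 376 CPM in HUWE1-P, at 375, 358 and 363 CPM in HUWE1-WT and at 352, 369 and 329.8 CPM in HUWE1-CS. HUWE1-CS overlapped HUWE1-WT. The highest HUWE1-WT library (375.5 CPM) lay only just below the lowest HUWE1-P library (375.8 CPM). The log2 fold changes of HUWE1-CS were -0.16 ± 0.07 against HUWE1-P (adjusted p = 0.0692, edgeR) and -0.06 ± 0.07 against HUWE1-WT (adjusted p = 0.544). In HUWE1-WT against HUWE1-P the value was -0.09 (adjusted p = 0.933, edgeR). Exons of MRNIP on the opposite strand overlap 21.0% of its exon bases. MAP1LC3B, the LC3 protein most used to count autophagosomes, lay at 72.6 to 76.0 CPM in HUWE1-CS and 75.1 to 94.2 CPM in the controls, with log2 fold changes of -0.20 ± 0.11 and -0.22 ± 0.11. GABARAP, GABARAPL1 and GABARAPL2, of the other ATG8 branch, had log2 fold changes of 0.31, 0.35 and -0.03 against HUWE1-P and 0.04, 0.14 and 0.01 against HUWE1-WT. As paralogues, these genes could share reads, and how such reads were counted is not given in the sources used here. The lipid transfer proteins ATG2A and ATG2B, which feed the growing membrane, were low, and their log2 fold changes were -0.08 ± 0.17 and 0.03 ± 0.28 against HUWE1-P.

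The 3 regulators were not called. TFEB had only 7 to 15 counts per library, the lowest of the members, and its 95% interval against HUWE1-P ran from -1.03 to 0.49, so that neither a rise nor a fall of moderate size was detectable at this depth. TFE3 was measured at 16.8, 23.6 and 21.2 CPM in HUWE1-P, at 20.3, 20.2 and 22.7 CPM in HUWE1-WT and at 18.4, 17.0 and 11.6 CPM in HUWE1-CS. The first HUWE1-P library lay among the HUWE1-CS libraries, and the log2 fold changes were -0.40 ± 0.22 (adjusted p = 0.188, edgeR) and -0.42 ± 0.22 (adjusted p = 0.162). MTOR had log2 fold changes of 0.03 ± 0.09 and 0.19 ± 0.09, the latter at an adjusted p of 0.117. With the length trend removed, MTOR, whose transcript has 9013 bases, had a log2 fold change of 0.30 against HUWE1-WT at an adjusted p of 0.00663.

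By overlap of single libraries, 14 members (28%) had all 3 HUWE1-CS libraries above or below the 6 controls, beside 26.3% of all genes. Of these, 10 lay above (12.9% of all genes did) and 4 below (13.4% of all genes did). Among the 14 were 9 of the 12 called members, and the uncalled ones were TPP1, CTSD, ATP6V1D, ATP6V0E1 and ATG13. Per kilobase of the longest annotated transcript, the highest members over the 9 libraries were PSAP, CD63 (203 CPM per kilobase), ATP6V0C (171) and SQSTM1 (130). The lowest were TFEB (1.89) and ATG2B (0.868). The longest transcript need not be the one expressed, so this order is approximate.

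The members with and without an E-box core were then set side by side. Of the 11 with a match, 3 were higher and 1 was lower against HUWE1-P, with a median log2 fold change of 0.11. Of the 29 without, 2 were higher and 1 was lower, with a median of 0.12. Against HUWE1-WT, 2 of the 11 were higher and 0 lower (median 0.10), and of the 29 without a match 2 were higher and 2 lower (median 0.07). Among all tested genes whose window held a match, 7.08% were higher and 9.79% lower against HUWE1-P, and 7.5% and 9.06% against HUWE1-WT. Among those whose window held none, the shares were 8.67% and 8.3% against HUWE1-P, and 7.34% and 7.96% against HUWE1-WT. PSAP and RB1CC1 were among the 10 members without a window. ATG12, with the largest decrease of the 50, had a window without a match.

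**Figure D4:**
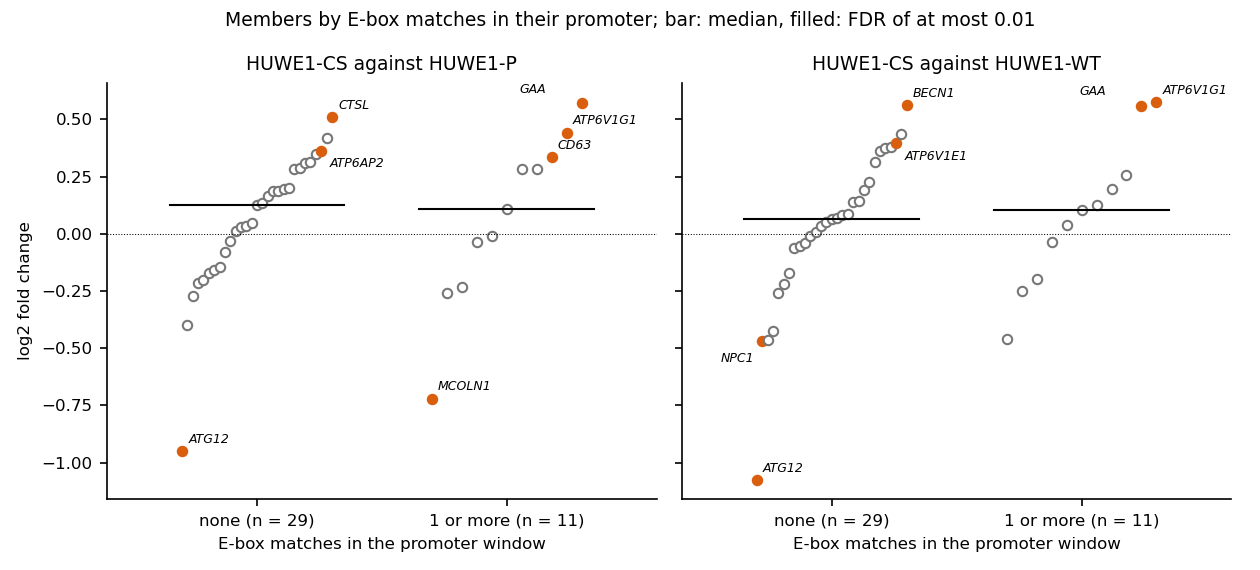
Log2 fold change of the 40 members with a promoter window, split into 29 without and 11 with an E-box core, against HUWE1-P (left) and HUWE1-WT (right). Points are genes in order of their value, bars medians, and filled points those at an FDR of at most 0.01. Members with and without a match span rises and falls, with medians of 0.11 and 0.12 on the left.

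In 5 lists of further genes of the same pathways, 12.2%, 16.1%, 14.3%, 20% and 15.8% were called against HUWE1-P, in the order given here, beside 17% of all genes. Against HUWE1-WT the shares were 12.2%, 19.4%, 7.14%, 16% and 10.5%, beside 15.5% of all genes. Over all genes, 8.46% were higher and 8.58% lower against HUWE1-P, and 7.42% and 8.08% against HUWE1-WT. Of 41 other lysosomal enzymes and lumenal proteins, 5 rose (12.2%) and 0 fell in each comparison with HUWE1-CS cells. They included GRN, the precursor of the lysosomal granulins, which rose by 0.65 on the log2 scale against HUWE1-P and by 0.57 against HUWE1-WT. SIAE, a sialic acid esterase, rose by 0.82 and 0.83, ASAH1, the acid ceramidase, by 0.46 and 0.57, and FUCA1, a fucosidase, by 0.69 and 0.75. The fifth, the dipeptidyl peptidase DPP7, was named after its values were seen and rose by 0.28 and 0.32. The median of the 41 genes was 0.02 against HUWE1-P, so most of them did not move with these.

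Of 31 other lysosomal membrane proteins and sorting factors, 2 rose (6.45%) and 3 fell (9.68%) against HUWE1-P, beside 8.46% and 8.58% of all genes. Against HUWE1-WT, 2 rose (6.45%) and 4 fell (12.9%), beside 7.42% and 8.08% of all genes. SORT1, a sorting receptor for lysosomal proteins that include prosaposin, fell by 1.62 and by 1.42 on the log2 scale, from 55.8 CPM in HUWE1-P and 48.8 CPM in HUWE1-WT to 18.2 CPM in HUWE1-CS. TMEM192 fell by 1.07 and by 0.80, and the sialomucin CD164 fell by 0.32 and by 0.36. LAPTM4B rose by 0.32 and 0.28, and PLD3 by 0.49 and 0.39. The amino acid transporter SLC36A1, named after its values were seen, fell by 1.29 against HUWE1-WT (adjusted p = 0.000169, edgeR), with an uncalled value of -0.93 against HUWE1-P (adjusted p = 0.0111).

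Of 14 other V-ATPase subunits and assembly factors, 1 rose and 1 fell against HUWE1-P (7.14% each, beside 8.46% and 8.58% of all genes). Against HUWE1-WT, 1 rose (7.14%) and 0 fell, beside 7.42% and 8.08% of all genes. The assembly factor CCDC115 rose by 0.66 and the assembly factor VMA21 fell by 0.49 against HUWE1-P, and neither was called against HUWE1-WT (0.50 and -0.36). The gene that rose against HUWE1-WT was ATP6V0A2, a membrane sector subunit named after its values were seen, by 0.52 (adjusted p = 0.0049, edgeR), with an uncalled value of 0.47 against HUWE1-P (adjusted p = 0.0105). Of 50 other autophagy genes, 7 rose (14%) and 3 fell (6%) against HUWE1-P, beside 8.46% and 8.58% of all genes. Against HUWE1-WT, 6 rose (12%) and 2 fell (4%), beside 7.42% and 8.08% of all genes. TP53INP1, a p53 target that binds ATG8 proteins, rose by 1.39 and 1.51, EI24 by 0.29 and 0.30, and WIPI2, which recruits ATG16L1 to the forming autophagosome, by 0.39 and 0.41. TEX264, a receptor for autophagy of the endoplasmic reticulum, rose by 0.62 against HUWE1-P, with an uncalled value of 0.44 against HUWE1-WT. The lipid scramblase ATG9A fell by 0.41 and by 0.37, and CCPG1, a further receptor of that kind, fell by 1.40 and by 1.27. ATG16L1, which holds the ATG12 and ATG5 conjugate at the membrane, fell by 0.48 against HUWE1-P, with an uncalled value of -0.22 against HUWE1-WT.

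Of 38 genes of nutrient sensing around MTOR, 4 rose (10.5%) and 2 fell (5.26%) against HUWE1-P, beside 8.46% and 8.58% of all genes. Against HUWE1-WT, 2 rose and 2 fell (5.26% each), beside 7.42% and 8.08% of all genes. SESN1, a p53 target that restrains MTOR complex 1, rose by 1.43 and 1.15. Its relative SESN2 rose by 0.67 against HUWE1-P, with an uncalled value of 0.33 against HUWE1-WT. LAMTOR4, a subunit of the Ragulator scaffold on the lysosome, rose by 0.77 and 0.63, and LAMTOR5 rose by 0.58 against HUWE1-P, with an uncalled value of 0.35 against HUWE1-WT. RRAGD, a Rag GTPase, fell by 0.79 and by 1.00, and FNIP2, a partner of folliculin, fell by 1.63 and by 1.47. Between the control lines, edgeR called 0 genes of these 5 lists, beside 0.0617% of all genes. Of the lists, 3, 0, 0, 2 and 0 genes had an unadjusted p under 0.05, beside 629 of all 11350 genes.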

How the data were processed

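Polyadenylated RNA of 9 samples was made into libraries with a NEBNext Ultra II RNA kit, which does not mark strand, and sequenced from a single end. The authors demultiplexed with bcl2fastq 2.20, trimmed with Skewer, mapped to hg19 with STAR 2.5.4, tested with edgeR 3.26.8 and deposited raw counts per gene. The counting tool, annotation and rule for low genes are not given in the sources used here. The deposited tables of the authors' own comparisons (log2 fold changes, log2 CPM, F, p-value, FDR) were not used.

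Lines and replicate numbers came from the sample labels. Counts were normalized with TMM and fitted with edgeR 4.0.16 (glmQLFit with legacy = TRUE, glmQLFTest, R 4.3.3) over all 9 libraries, with line as the only term. Genes were called at an FDR of at most 0.01 over 11350 genes. The SE is the log2 fold change divided by the square root of F. The script was tested on simulated counts. Replicates of a line differed by more than sampling noise (chi-square per degree of freedom 1.16 to 1.65), so no library was counted as a duplicate. Rows without a symbol (147 genes, 0.505% of counts) were kept as unnamed genes. Transcript lengths and hg19 positions came from GENCODE v44 lifted to GRCh37, and promoter sequences from RefSeq (GRCh38.p14).

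Members and lists were chosen with earlier results of these data known. Every member called in a comparison was named with its libraries, as were LAMP1, LAMP2, CTSD, SQSTM1, MAP1LC3B, TFEB, TFE3 and MTOR. From each wider list, at most 4 higher and 4 lower genes called in HUWE1-CS against HUWE1-P, those with the smallest p, were named. Alternatives were the newer edgeR estimator, DESeq2 1.42.0, limma-voom (limma 3.58.1), RLE or total-count scaling, a minimum of 10 counts, only the lines compared, a robust fit, a replicate block, a length correction, FDR of at most 0.05 and leaving out each library. A comparison of the ATG8 proteins was not run.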

Additional observations from a re-analysis of the deposited data

How the results depend on the processing

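Of 20 alternative fits, none changed the calls of PSAP, GAA, ATP6V1G1, RB1CC1 and ATG12 in either comparison with HUWE1-CS cells. At an FDR of at most 0.05, 15 members were called against HUWE1-P (10 higher, 5 lower) and 14 against HUWE1-WT (9 higher, 5 lower), beside 26.4% and 24.4% of all genes. With DESeq2, 6 were called in each, beside 9.59% and 8.79% of all genes. With total counts, 10 members were called against HUWE1-WT (5 higher, 5 lower), beside 15.8% of all genes. With libraries left out in turn, 7 to 9 members (5 to 6 higher, 2 to 3 lower) were called against HUWE1-P and 5 to 10 (3 to 6 higher, 2 to 4 lower) against HUWE1-WT, beside 12.9% to 17.8% and 12.1% to 15.6% of all genes. The 5 were found without HUWE1-WT replicate 1, when NPC1, ATP6V1E1 and BECN1 were lost and 12.4% of all genes were called. Between the control lines, 0 members were called under every alternative. Some uncalled values near 0 changed sign, among them 3 with libraries left out: LAMP2 against HUWE1-WT ranged from -0.081 to 0.10 (positive without HUWE1-CS replicate 2), CTSL in HUWE1-WT against HUWE1-P from -0.035 to 0.22 (negative without HUWE1-WT replicate 3), and TFEB there from -0.19 to 0.44 (negative without HUWE1-P replicate 3). The causes were not tested. With a minimum of 10 counts, TFEB had no value.

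The correlations of same-numbered libraries were -0.02 to 0.06, so any pairing by replicate number was weak. With the replicate number as a block, 9, 8 and 0 members were called in the 3 comparisons, as without it, and no call of a named member changed. Over all genes, 17.8%, 16.2% and 0.0617% were called with the block. Block and length correction together gave 10, 10 and 0 called members, beside 16.9%, 16.2% and 0.0705% of all genes.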
